A study of Mus musculus with 64 samples.

Results

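Adult mouse microglia labelled knockout (KO) for the Rieske iron-sulphur protein (RISP) were compared with control microglia at the depletion stage of treatment with PLX3397, an inhibitor of the receptor CSF1R. The members are the 8 libraries that the labels name as adult PLX3397 depletion, out of 64 in the series. The RISP KO group has 2 libraries, the RISP Het group has 2 and the RISP WT group has 4, and the Het and WT libraries together are the 6 controls. Microglia were sorted from whole brain as CD11b and CD45.2 stained cells, and total RNA was sequenced with a stranded kit. Counts on rows for CreERT2 (a tamoxifen-activated Cre recombinase) and tdTomato (a red fluorescent reporter) were present in all 8 libraries, so KO and controls share both. On unscaled totals CreERT2 gave 449 and 503 counts per M (CPM) in KO, against 635 to 719 in Het and 607 to 779 in WT. For tdTomato the values were 283 and 278 CPM in KO, against 162 to 295 in Het and 279 to 300 in WT. The promoter that drives the Cre, the dose and the day of PLX3397, the exact age and whether replicates are separate animals are not given in the labels used here. P-values therefore measure the spread between these libraries, which may in part be technical.

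RISP, encoded by Uqcrfs1, is the subunit of respiratory complex III that takes electrons from ubiquinol and passes them to cytochrome c1. Without it complex III cannot oxidise ubiquinol, which stalls the electron flow from complexes I and II. Microglia are the resident macrophages of the brain and need signalling through CSF1R to survive, so PLX3397 removes most of them, and the cells that remain at depletion are those that have endured the drug. In bulk samples such as these, fewer cells of a type and less RNA per cell cannot be told apart.

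Total counts were 11.6 M and 10.6 M in KO, 11.8 M and 9.47 M in Het and 9.32 M to 12.7 M in WT. Of 45708 genes, 13948 passed a filter on low counts, and 22497 had no count in any of the 8 libraries. All levels below are CPM on library sizes scaled by TMM. The defining microglial genes were abundant in every library: P2ry12 was at 2495 and 2123 CPM in KO, 2897 and 2892 in Het and 2555 to 3071 in WT. Y-linked genes divided KO and Het into 1 female and 1 male library each and WT into 2 and 2. The male Het 2 also held Xist, the X-inactivation RNA of female cells, at 30.4 CPM, against 4.92 to 7.61 CPM in the other male libraries. Leaving out any 1 control lowered the count of genes changed in KO, and leaving out Het 2 lowered it least.

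Uqcrfs1 (ENSMUSG00000038462, GRCm38 chr13:30540308-30545362, minus strand) checks the labels. It was at 13.8 and 9.32 CPM in KO, 31.5 and 53.9 CPM in Het and 48.0, 65.3, 38.0 and 44.3 CPM in WT. Both KO libraries lay below all 6 controls, and the Het and WT libraries overlapped. The KO libraries still held 159 and 97 reads on the gene, and the KO mean was 11.6 ± 3.18 CPM (SD, n = 2) against 46.8 ± 11.9 CPM in the controls (SD, n = 6). Uqcrfs1 fell in KO by 1.98 on the log2 scale (SE 0.32, edgeR quasi-likelihood test, Benjamini-Hochberg adjusted p = 0.0169). A two-sided exact permutation test on the gene alone gave p = 0.0714, the smallest that 2 against 6 libraries allow. Against WT alone the log2 fold change was -2.08 ± 0.33 (SE, edgeR adjusted p = 0.0148), and against Het alone it was -1.88 ± 0.35 (edgeR adjusted p = 0.0556). With either KO library left out the fall in Uqcrfs1 did not pass, at edgeR adjusted p = 0.114 without KO 1 and 0.185 without KO 2.

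**Figure D1:**
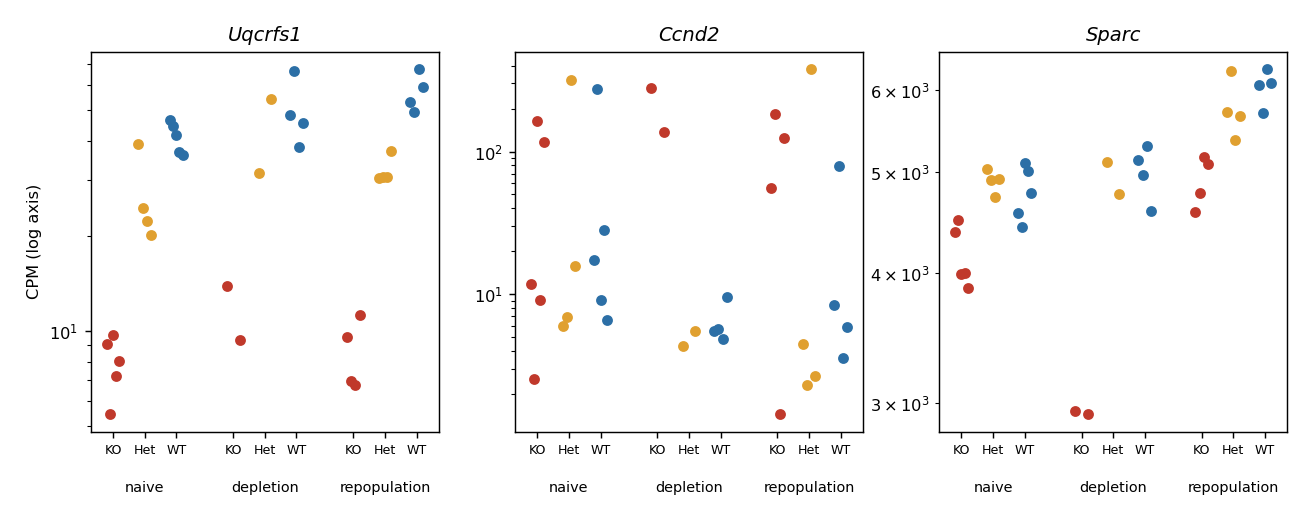
Levels of Uqcrfs1, Ccnd2 and Sparc in CPM (log axis, scaled over 34 libraries) in naive, depletion and repopulation libraries, with KO left of Het and WT in each, 1 point per library. KO libraries lie lowest for Uqcrfs1 in every condition, both depletion KO libraries stand far above their 6 controls for Ccnd2 while high Ccnd2 also occurs in controls of other conditions, and the Sparc gap between KO and controls is widest at depletion.

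Both KO libraries lay above all 6 controls for 1139 genes (8.17% of genes tested) and below them for 1041 (7.46%). Most of these gaps were small. The lower of the KO libraries exceeded the highest control by a median of 1.13-fold, and the higher of them lay below the lowest control by a median of 1.12-fold. A gap of over 1.5-fold was left by 173 genes above and 102 below the controls, and a gap of over 3-fold by 15 above and 19 below. The fit across all genes called 209 genes higher in KO (1.5% of genes tested) and 108 lower (0.774%), at an adjusted p under 0.05, and 1825 genes had an unadjusted p under 0.05. Of the 317 called genes (2.27% of those tested), 314 also had both KO libraries outside the control range on the called side, and 1866 genes outside the range were not called. More than 2-fold changes made up 87 of the higher calls and 41 of the lower ones. The count rests on having both KO libraries: it was 17 without KO 1 and 87 without KO 2. Other fits gave 820 with DESeq2's Wald test, 847 (5.41% of 15664 genes) with 34 libraries of the same kind and 51 with all 64 libraries, and the last pair also differ from the first in the genes that passed the filter.

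The genes with the highest fold changes in KO have known roles in growth, matrix and stress. The choice of the most changed genes in either direction required both KO libraries outside the control range. Their lack of overlap with controls therefore follows from that choice, and the values show only the size of the gap. Ccnd2 encodes cyclin D2, which drives entry into the cell cycle. It was at 279 and 137 CPM in KO, 4.35 and 5.46 CPM in Het and 5.54, 5.58, 4.87 and 9.35 CPM in WT. The groups stood far apart, with a log2 fold change of 5.22 ± 0.31 (SE, edgeR adjusted p = 0.000391). In naive and repopulation libraries the same gene was uneven within groups: 5 of 9 KO and 4 of 17 control libraries held over 50 CPM, a level chosen after the values were seen. There the KO effect was -0.32 ± 1.17 in naive and 0.91 ± 1.24 at repopulation (SE), and in the fit of 34 libraries the depletion call was lost (edgeR adjusted p = 0.0914). Lox, the enzyme that cross-links collagen and elastin, was at 101 and 169 CPM in KO, 5.92 and 9.34 in Het and 7.90, 5.15, 9.32 and 10.2 in WT. Both KO libraries were far above every control. Its log2 fold change was 4.10 ± 0.29 (edgeR adjusted p = 0.000732), and it was also higher in KO in naive (3.18) and at repopulation (3.27). Hpse, the heparanase that cleaves heparan sulphate chains, was at 15.7 and 32.6 CPM in KO, 0.522 and 2.62 in Het and 3.69, 3.32, 5.04 and 3.89 in WT, again without overlap (3.27 ± 0.49, edgeR adjusted p = 0.0122).

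Atf5, a transcription factor of the mitochondrial stress response, was at 93.3 and 68.0 CPM in KO, 11.1 and 8.19 CPM in Het and 8.21, 8.90, 7.30 and 9.35 CPM in WT. The groups did not overlap, and Atf5 kept its call under every alternative setting run, including those that left out a library (3.16 ± 0.18, edgeR adjusted p = 0.000354). Mthfd2, the mitochondrial enzyme of one-carbon folate metabolism, was at 48.0 and 60.7 CPM in KO against 8.90 to 11.9 CPM in controls, without overlap (2.38 ± 0.18, edgeR adjusted p = 0.000952). The pattern-recognition receptor for beta-glucan, Clec7a, was at 238 and 314 CPM in KO, 64.2 and 96.9 CPM in Het and 63.7, 71.9, 73.5 and 66.0 CPM in WT. All KO values exceeded the controls, and Clec7a rose by 1.89 ± 0.16 on the log2 scale (edgeR adjusted p = 0.00178). P2ry2, a receptor for extracellular ATP and UTP, was at 18.8 and 18.3 CPM in KO against 2.25 to 6.28 CPM in controls (1.98 ± 0.34). It was called, and the groups did not overlap.

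Nr4a2, an orphan nuclear receptor induced by acute stimuli, had the largest fitted fold change and rested on 1 library. It was at 89.7 CPM in KO 1 and 1.44 CPM in KO 2, at 0.174 and 0.105 CPM in Het and at 0.821, 0.429, 0.0839 and 0.598 CPM in WT. KO 2 was above the controls, but far below KO 1. The log2 fold change was 7.38 ± 1.26 (edgeR adjusted p = 0.0224), and without KO 1 it was 2.40 with an edgeR adjusted p of 0.69. Nr4a2 was the only called gene of 23 tested in the list of dissociation stress and immediate early genes, against 1.5% of all genes called higher.

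The genes lowest in KO included surface and membrane proteins. The neighbouring genes Tmem176a and Tmem176b encode related ion channels of endosomal membranes of antigen-presenting cells. Tmem176b (GRCm38 chr6:48833818-48841496, minus strand) was at 95.7 and 105 CPM in KO, 453 and 442 CPM in Het and 398, 388, 421 and 402 CPM in WT. Tmem176a was at 29.5 and 34.3 CPM in KO, 165 and 178 CPM in Het and 150, 148, 169 and 164 CPM in WT. Every KO value lay far below every control for both genes. Tmem176b fell by 2.08 (SE 0.10, edgeR adjusted p = 0.000203) and Tmem176a fell by 2.37 (SE 0.13, edgeR adjusted p = 0.00029) on the log2 scale, and Tmem176b kept its call in every alternative. Their annotated spans overlap on opposite strands, so reads in the overlap can be assigned to one or the other only through the strand.

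Il7r, the receptor chain for interleukin-7, was at 3.65 and 4.81 CPM in KO, 20.5 and 19.7 CPM in Het and 22.7, 19.5, 32.7 and 27.4 CPM in WT (fell by 2.42, SE 0.27, edgeR adjusted p = 0.00386). Mycl, a transcription factor of the Myc family, was at 4.87 and 5.48 CPM in KO, 22.2 and 25.6 CPM in Het and 41.1, 38.1, 36.2 and 25.4 CPM in WT (fell by 2.48, SE 0.24, edgeR adjusted p = 0.00283). No KO library came near a control for either gene. Tm6sf1, a multi-pass membrane protein, was at 21.2 and 22.7 CPM in KO against 78.0 to 119 CPM in controls (fell by 2.22). The orphan receptor Gpr165 was at 5.48 and 5.86 CPM in KO against 20.7 to 44.7 CPM in controls (fell by 2.53), the tetraspanin Upk1b was at 17.3 and 22.7 CPM in KO against 60.4 to 107 CPM in controls (fell by 1.95), and Klhdc8b was at 3.74 and 3.94 CPM in KO against 14.8 to 35.4 CPM in controls (fell by 2.65). Gabbr1, a subunit of the GABA-B receptor, passed narrowly at 19.4 and 13.6 CPM in KO against 26.5 to 82.4 CPM in controls (fell by 1.82, edgeR adjusted p = 0.047). All of these had separate groups, which their choice required.

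**Figure D2:**
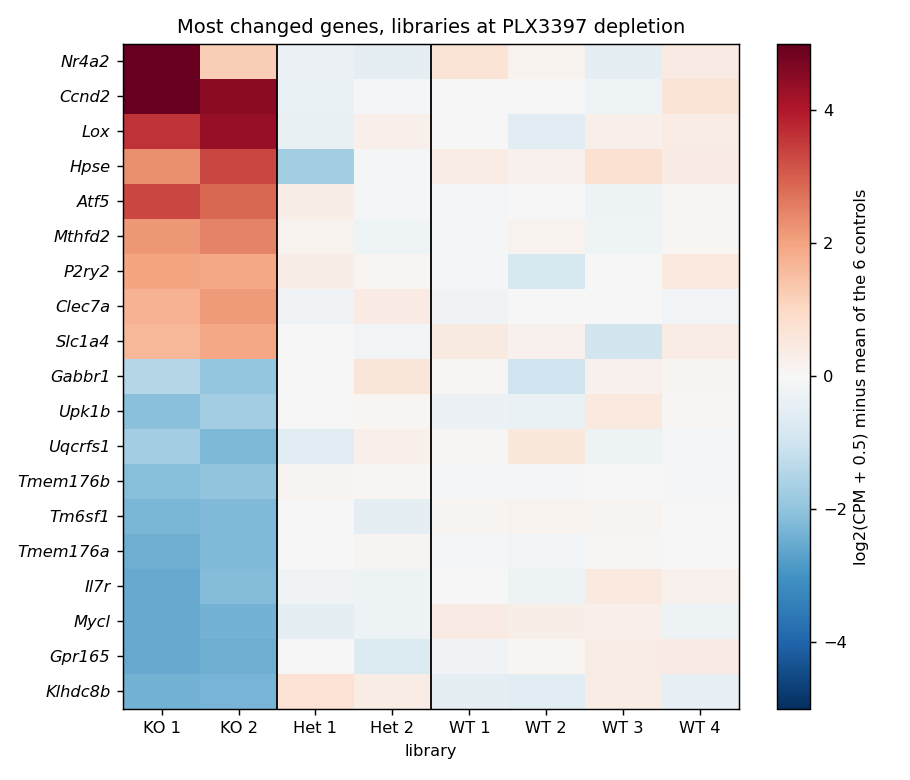
Heat map of the named genes with the largest changes in the 8 depletion libraries (KO left, then Het and WT), coloured by log2(CPM + 0.5) minus the mean of the 6 controls, with colour clipped at 5 on either side. Both KO columns lie on the same side of the controls for every gene shown, which the choice of genes other than Uqcrfs1 required, and KO 1 is far above KO 2 for Nr4a2.

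Cytosolic ribosomal protein genes rose in KO, as did 10 of 22 translation factors. Both gene lists were added after the calls were seen. Both KO libraries lay above all 6 controls for 79 of 79 ribosomal protein genes, against 8.17% of all genes, and 76 of the 79 were called higher and 0 lower. Their median log2 fold change was 0.95 (range 0.74 to 1.65), while the median over all genes tested was -0.00. Together they took 5.63% and 5.18% of scaled counts in KO, against 2.30% to 3.40% in controls. Rpl23 was at 922 and 862 CPM in KO, 411 and 422 CPM in Het and 319, 306, 370 and 339 CPM in WT (1.26 ± 0.09, edgeR adjusted p = 0.000892). For Rps6, the ribosomal protein phosphorylated by S6 kinases, the levels were 1158 and 1004 CPM in KO, 615 and 622 CPM in Het and 492, 447, 501 and 465 CPM in WT (0.99, edgeR adjusted p = 0.00195). The Het libraries lay between KO and WT for both genes. Rpl14 showed the same order, at 499 and 442 CPM in KO, 249 and 252 CPM in Het and 218, 201, 219 and 205 CPM in WT (1.03 ± 0.09). Over the list, Het 2 lay above all 4 WT libraries for 75 of the 79 genes, and for 44 of these Het 1 did too. In Het against WT 0 of the 79 were called. In KO against Het alone 34 were called higher, where 0.595% of all genes were, and against WT alone 78, where 1.59% were. Without KO 1 only 4 of the 79 were called and without KO 2 only 40. Ribosomal protein genes have many near-identical pseudogene copies, so how reads were shared among copies is uncertain for each of them.

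Of the 22 translation factors 10 were called higher and 0 lower, 14 lay above the control range, and 3 had a negative log2 fold change. Over all genes 1.5% were called higher and 8.17% lay above the range. Without KO 1 only 2 of the 22 were called and without KO 2 only 6. Eef1a1, which delivers aminoacyl-tRNA to the ribosome, was at 8681 and 8713 CPM in KO, 4388 and 4691 CPM in Het and 4026, 4116, 4426 and 4177 CPM in WT. KO held about 2-fold the controls (1.00 ± 0.06, edgeR adjusted p = 0.000421). Eef2, the elongation factor for translocation, was at 3092 and 2938 CPM in KO against 1543 to 1770 CPM in controls (0.86). The poly(A)-binding protein gene Pabpc1 was at 1507 and 1387 CPM in KO against 619 to 773 CPM in controls (1.04). Tpt1 (0.90), Eef1b2 (1.16) and Eif4b (0.81) were also called, while the initiation factors Eif4e, Eif4a1, Eif4g1 and Eif2s1 were not.

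Messages for ribosomal proteins and elongation factors often begin with a cytosine followed by a run of pyrimidines, the element through which mTOR controls their translation. Around the annotated starts (RefSeq, GRCm38.p6), a C followed by 4 or more pyrimidines stood at the start of 14 of the 58 ribosomal protein genes with a promoter entry (24.14%) and 2 of the 16 translation factors (12.5%), against 813 of 27025 genes (3.01%). This search was chosen after the values were seen, and a match describes the letters only. A pair of examples is printed with the run in capitals, 30 bases around the start on the gene's strand.
Rpl14, chr9:120571502-120571531, plus strand: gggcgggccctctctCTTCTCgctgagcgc
Rps6, chr4:86857353-86857382, minus strand: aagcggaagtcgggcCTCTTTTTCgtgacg

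The mitochondrial genome encodes 13 proteins of complexes I, III, IV and ATP synthase. Of these 13 genes 12 were called higher in KO and 0 lower, against 1.5% and 0.774% of all genes. The same 12 lay above the control range, against 8.17% of all genes, with a list median of 0.89. The 13 genes together took 5.07% and 5.23% of scaled counts in KO, against 2.03% to 2.67% in controls. The gap was narrower over all genes with an mt- symbol, on unscaled totals. These took 5.74% and 5.56% in KO, against 2.72% to 4.21% in controls, with Het 2 the highest control. The cytochrome c oxidase core subunit mt-Co1 was at 18827 and 18868 CPM in KO, 6509 and 7512 CPM in Het and 6111, 6654, 8262 and 6716 CPM in WT. Both KO libraries were more than 2-fold above the highest control (1.43 ± 0.11, edgeR adjusted p = 0.000907). For mt-Co2 the levels were 6517 and 6864 CPM in KO against 1992 to 2603 CPM in controls (1.53 ± 0.11, edgeR adjusted p = 0.000754). Complex I subunits mt-Nd1 (1.16) and mt-Nd2 (0.86) rose less, and mt-Cytb, the mitochondrially encoded core of complex III itself, was at 4324 and 4583 CPM in KO against 2348 to 3151 CPM in controls (0.75 ± 0.11, edgeR adjusted p = 0.0107). The exception was mt-Nd3, at 294 and 315 CPM in KO, 184 and 369 CPM in Het and 179 to 222 CPM in WT, where Het 2 exceeded KO. Without KO 1 only 2 of the 13 were called and without KO 2 only 3.

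Lists of nuclear genes for the respiratory chain, the TCA cycle and mitochondrial chaperones and proteases gave few calls. Over all genes 2.27% were called, so few calls in lists of this size do not set these genes apart. Of 14 complex III genes other than Uqcrfs1, 36 complex I genes, 15 ATP synthase genes, 22 TCA cycle genes and 14 mitochondrial chaperones and proteases, 0 were called by edgeR. Their counts at an unadjusted p under 0.05 were 1, 4, 1, 2 and 4 in that order of lists, and DESeq2's Wald test called 0, 1, 0, 1 and 1. In the same order 1, 1, 0, 1 and 4 genes lay above the control range and 0 below it. Over all genes 8.17% lay above and 7.46% below. The chaperones and proteases summed to 0.0832% and 0.0817% of scaled counts in KO, against 0.0633% to 0.0763% in controls. The cytochrome oxidase list had 1 higher call of 14, against 1.5% of all genes. That gene was Cox7a2l, a factor that joins complex III to complex IV in supercomplexes. Cox7a2l was at 265 and 279 CPM in KO against 134 to 162 CPM in controls, without overlap (0.89 ± 0.09, edgeR adjusted p = 0.00283).

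**Figure D3:**
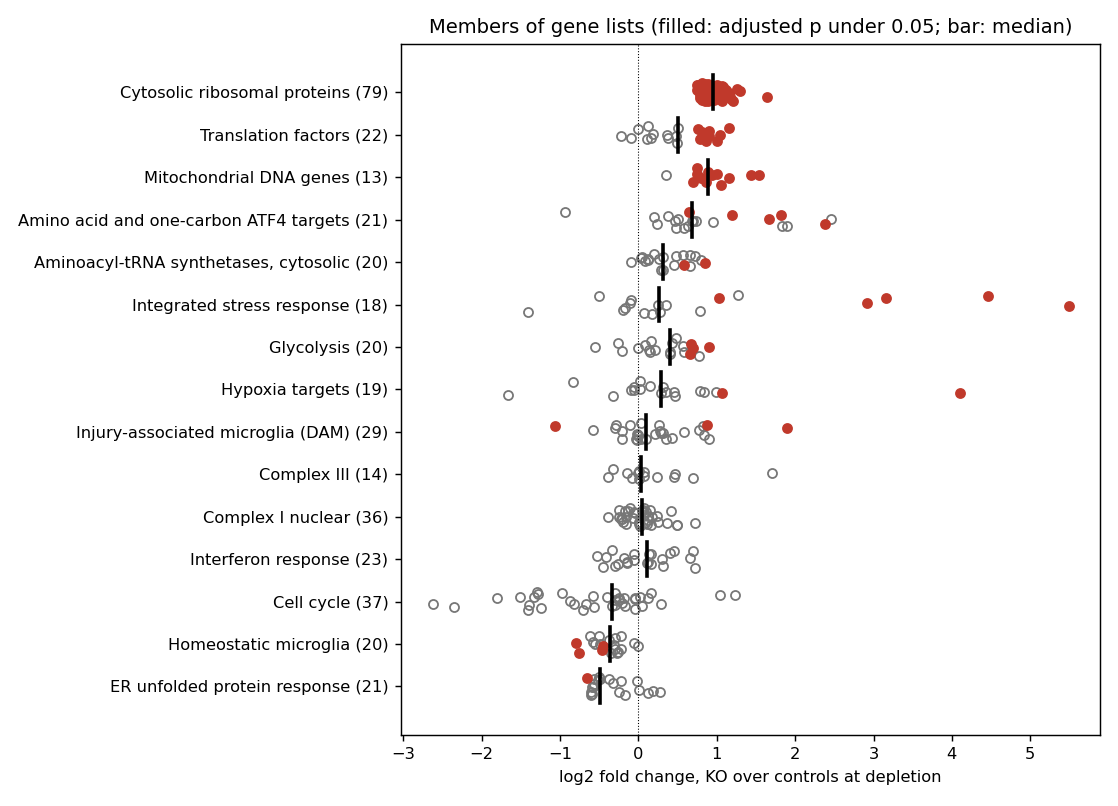
Log2 fold change of KO over controls at depletion for each tested member of 15 gene lists, 1 point per gene, filled where the adjusted p is under 0.05, with a bar at the list median. Ribosomal protein and mitochondrial genes all sit above 0, at medians of 0.95 and 0.89, and homeostatic microglia genes lie below it.

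**Figure D4:**
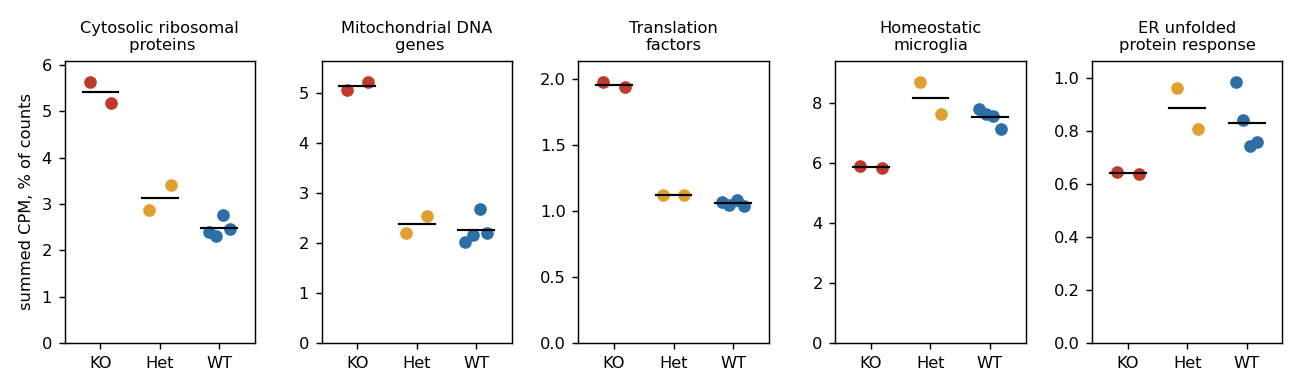
Percent of scaled counts in 5 gene lists in each depletion library, KO left of Het and WT, with bars at group means. Ribosomal proteins took 5.63% and 5.18% in KO against 2.30% to 3.40% in controls, and homeostatic genes 5.90% and 5.82% against 7.13% to 8.69%.

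The integrated stress response is the program by which a block of translation initiation raises ATF4 and its targets for amino acid supply. Of 18 tested genes of that list 5 were called higher, against 1.5% of all genes, and 0 lower, with a median of 0.26. Without KO 1 there was 1 call and the median was 0.075, and without KO 2 there were 3 calls. Trib3, a pseudokinase that ATF4 induces, was at 16.3 and 12.2 CPM in KO, 0.261 and 0.630 CPM in Het and 1.23, 0.858, 0.336 and 1.27 CPM in WT (4.46 ± 0.51, edgeR adjusted p = 0.004). The secreted stress hormone Gdf15 was at 18.2 and 11.1 CPM in KO, 2.52 and 1.68 CPM in Het and 1.44, 1.29, 2.43 and 1.87 CPM in WT (2.91 ± 0.36, edgeR adjusted p = 0.00544). Neither overlapped its controls. Chac1, which degrades glutathione, was at 4.00 and 3.65 CPM in KO against 0 to 0.214 CPM in controls and was called at this low level (edgeR adjusted p = 0.0183). Sesn2, a leucine sensor upstream of mTORC1, was at 28.2 and 29.2 CPM in KO against 12.2 to 15.7 CPM in controls (1.03 ± 0.16). With Atf5, described above, these are the 5 calls. Atf4 itself was at 110 and 97.4 CPM in KO, 90.4 and 82.4 CPM in Het and 133, 105, 72.4 and 79.1 CPM in WT, where the groups overlapped (0.18, edgeR adjusted p = 0.818), and Ddit3 did not pass (0.35, edgeR adjusted p = 0.564).

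The amino acid list, of amino acid and one-carbon genes written as ATF4 targets, had 21 genes tested. Among them 5 were called higher and 0 lower, and 10 lay above the control range, against 1.5% and 8.17% of all genes. Without KO 1 there was 1 call, and likewise without KO 2. Slc7a1, the transporter of arginine and lysine, was at 61.8 and 78.0 CPM in KO against 18.2 to 34.3 CPM in controls (1.66 ± 0.20, edgeR adjusted p = 0.00489). Slc7a5, which carries leucine and other large neutral amino acids, was at 214 and 244 CPM in KO against 72.3 to 124 CPM in controls (1.19 ± 0.18, edgeR adjusted p = 0.0117). Every KO value exceeded the controls. Slc1a4, a transporter of alanine, serine and cysteine, was at 29.5 CPM or more in KO against 4.45 to 12.2 CPM in controls (1.82 ± 0.33), and Mthfd2, described above, is the fourth call. Phgdh, which starts serine synthesis, was the last, at 146 and 139 CPM in KO against 71.7 to 107 CPM in controls (0.65, edgeR adjusted p = 0.048). Asparagine synthetase, Asns, was at 12.3 and 15.7 CPM in KO, 3.13 and 5.46 CPM in Het and 4.31, 0.214, 0.839 and 0.673 CPM in WT and did not pass (2.46, edgeR adjusted p = 0.21). Of 20 aminoacyl-tRNA synthetases 2 were called higher, Sars (172 and 160 CPM in KO against 81.6 to 109 CPM in controls) and Gars (83.3 and 88.0 CPM in KO against 51.6 to 61.5 CPM in controls), and 9 lay above the range.

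ATF4 and its partner C/EBP factors bind a composite element, written here as TGATGNAA on either strand. The promoter window ran from 250 bases before to 50 after the start (RefSeq, GRCm38.p6). It held the element in 12 of the 37 listed stress and amino acid genes with an entry (32.43%), 3 of the 9 called ones (33.33%) and 1219 of 27025 genes (4.51%). The amino acid list was written as ATF4 targets and the stress list around the ATF4 program. A share above that of all genes therefore follows in part from how the lists were written. A match is a description of letters and not of binding. The 3 called genes and the called synthetase Gars are printed with the element in capitals, on the gene's strand.
Chac1, chr2:119351038-119351067, plus strand: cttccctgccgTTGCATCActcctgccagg
Slc1a4, chr11:20332699-20332728, minus strand: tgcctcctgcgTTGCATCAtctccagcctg
Trib3, chr2:152344028-152344057, minus strand: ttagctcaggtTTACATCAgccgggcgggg
Gars, chr6:55037960-55037989, plus strand: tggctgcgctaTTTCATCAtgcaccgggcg

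Glycolysis gave 4 calls of 20 genes, all higher, with 9 above the control range and a median of 0.40, against 1.5% called higher and 8.17% above the range over all genes. There were 0 calls without KO 1 and 0 without KO 2. Gpi1, which converts glucose-6-phosphate, was at 421 and 447 CPM in KO, 263 and 213 CPM in Het and 233, 235, 223 and 212 CPM in WT (0.91 ± 0.10, edgeR adjusted p = 0.00388). Pkm, the pyruvate kinase of the last step, was at 911 and 910 CPM in KO against 499 to 647 CPM in controls (0.70 ± 0.09, edgeR adjusted p = 0.00634). Neither overlapped. Aldoa (0.66) and Pgk1 (0.66) were the other called enzymes, and the list as a whole took 0.57% and 0.58% of counts in KO against 0.356% to 0.464% in controls. In the hypoxia list 2 of 19 genes, Lox and Hif1a, were called higher and 0 lower, with 8 above the range. Hif1a, the oxygen-regulated transcription factor, was at 336 and 323 CPM in KO, 155 and 163 CPM in Het and 133, 144, 172 and 177 CPM in WT (1.06 ± 0.12, edgeR adjusted p = 0.00416).

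Of 21 genes of the unfolded protein response of the endoplasmic reticulum, 1 was called lower and 0 higher, 12 lay below the control range (7.46% of all genes did) and 17 had a negative log2 fold change, with a median of -0.50. The call was lost without KO 1, without KO 2, without Het 1 and without WT 2, each with 0 calls in the list. Pdia3, a disulphide isomerase for glycoproteins, was the call, at 692 and 608 CPM in KO, 1156 and 1094 CPM in Het and 1037, 994, 832 and 860 CPM in WT (fell by 0.65, SE 0.12, edgeR adjusted p = 0.0267). Calr, the calcium-binding chaperone of the same pathway, was at 1015 and 1011 CPM in KO against 1248 to 1829 CPM in controls and did not pass (-0.57, edgeR adjusted p = 0.0823). The master chaperone Hspa5 was at 752 and 709 CPM in KO against 789 to 1625 CPM in controls, with the widest spread in WT (-0.52, edgeR adjusted p = 0.479).

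Of 20 tested genes of the homeostatic microglial state 4 were called lower in KO and 0 higher, and 12 lay below the control range, against 0.774% and 7.46% of all genes. All 20 had a negative log2 fold change (median -0.37), and there were 0 calls without KO 1 and 0 without KO 2. Sparc, a secreted matricellular glycoprotein, was at 2946 and 2910 CPM in KO, 5122 and 4741 CPM in Het and 5127, 4902, 5293 and 4480 CPM in WT. The groups were far apart for so abundant a gene (fell by 0.75, SE 0.08, edgeR adjusted p = 0.00364). Selplg, the P-selectin ligand, was at 2044 and 1721 CPM in KO against 2812 to 3852 CPM in controls (fell by 0.79, SE 0.12). The complement chain C1qc was at 3814 and 4066 CPM in KO against 4514 to 6121 CPM in controls (fell by 0.47). P2ry12 (-0.28, edgeR adjusted p = 0.276) and Tmem119 (-0.61, edgeR adjusted p = 0.173) did not pass. Csf1r, the target of the drug, was at 12256 and 11918 CPM in KO against 13337 to 16239 CPM in controls, below the range and not called (-0.31, edgeR adjusted p = 0.0819), and 0 of the 21 genes of CSF1R signalling and survival were called by edgeR (7 at an unadjusted p under 0.05, 3 by DESeq2's Wald test).

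Among 29 genes of the disease-associated microglial state 2 were called higher and 1 lower, with a median of 0.10. Over all genes tested 1.5% were called higher and 0.774% lower, the shares to set beside each list of this paragraph. Besides Clec7a, the cystatin Cst7 was at 53.2 and 60.4 CPM in KO against 26.4 to 37.9 CPM in controls (0.87 ± 0.16, edgeR adjusted p = 0.0292). The chemokine Ccl6 was the lower one, at 36.4 and 57.1 CPM in KO against 80.3 to 108 CPM in controls (fell by 1.07, SE 0.19, edgeR adjusted p = 0.0281). Antigen presentation moved in both directions: H2-DMa, which loads peptides on MHC class II, was at 97.1 and 95.0 CPM in KO, 228 and 236 CPM in Het and 165, 170, 184 and 147 CPM in WT (fell by 1.03, SE 0.11), while the class I gene H2-D1 was at 1834 and 2187 CPM in KO against 1134 to 1563 CPM in controls (0.61 ± 0.11). Both were called, out of 15. Of 23 lysosomal genes 2 were called higher and 1 lower, and the higher ones were the glycosidases Gaa (494 and 598 CPM in KO against 272 to 396 CPM in controls) and Gla (27.7 and 27.3 CPM in KO against 10.5 to 17.2 CPM in controls). In 23 interferon-stimulated genes edgeR and DESeq2's Wald test gave 0 calls, with 2 at an unadjusted p under 0.05, and 0 lay outside the control range. The antigen presentation and lysosome lists each had 0 calls without KO 1 and 0 without KO 2.

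Of 37 proliferation genes edgeR called 0 (4 at an unadjusted p under 0.05, 1 by DESeq2's Wald test). Of these 30 had a negative log2 fold change (median -0.34) and 7 lay below the control range, where 7.46% of all genes did. In the p53 list 1 of 21 genes was called higher and 1 lower, against 1.5% and 0.774% of all genes. Neither call held with a KO library left out. Cdkn1a, which encodes the cell cycle inhibitor p21, was at 44.6 and 42.3 CPM in KO against 10.5 to 24.2 CPM in controls (1.51 ± 0.27, edgeR adjusted p = 0.0281). Sesn1, another p53 target, was the opposite, at 78.7 and 79.4 CPM in KO against 120 to 149 CPM in controls (fell by 0.72 on the log2 scale, edgeR adjusted p = 0.0162).

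Markers of border-associated macrophages, the macrophages of brain vessels and meninges, had a lower summed share in both KO libraries. The 13 tested genes summed to 0.0623% and 0.0374% of counts in KO against 0.0685% to 0.142% in controls, and edgeR called 0 of them (2 at an unadjusted p under 0.05, 2 by DESeq2's Wald test). Of the 13, 6 had a positive log2 fold change, and the list median was -0.13, -0.75 without KO 1 and 0.36 without KO 2. Lymphocyte markers, with 8 of 14 tested, summed to 0.00211% and 0.00215% in KO against 0.00264% to 0.00432% in controls, also with 0 calls by edgeR and 2 by DESeq2. Of monocyte (6 of 9 tested), neuron (2 of 11), oligodendrocyte, astrocyte and endothelial (11 each) and red blood cell markers (7), edgeR called 0, with 0, 0, 0, 2, 1 and 0 at an unadjusted p under 0.05, and DESeq2 called 1 astrocyte and 1 endothelial gene. The B and T cell genes Ms4a1 and Trac and the neutrophil gene Ly6g did not pass the filter on low counts. In the neutrophil list 6 of 12 genes were tested and 1, Mmp9, was called higher, against 1.5% of all genes. Mmp9 was at 1.48 and 3.84 CPM in KO, 0 and 0 CPM in Het and 0.616, 0.643, 0.336 and 1.12 CPM in WT (edgeR adjusted p = 0.0413). The neutrophil granule gene Ltf was at 0 in KO 1 and 9.90 CPM in KO 2, against 5.46 CPM or less in controls, so the KO libraries differed from each other in it. Red blood cell genes summed to 0.296% and 0.619% of counts in KO against 0.155% to 0.861% in controls. The part of these cells in the results was not tested. Lists of antioxidant (21), cholesterol synthesis (20), cholesterol efflux (13), cytokine (20) and heat shock genes (18) had 0 calls by edgeR, with 4, 2, 3, 2 and 0 at an unadjusted p under 0.05 and 1, 0, 3, 2 and 0 calls by DESeq2's Wald test.

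The KO effect at depletion was set beside that in naive and repopulation libraries in a fit of 34 libraries with under 1% of counts on the ncRNAs Gm26917 and Yam1, a share on which the series divides into kinds of library. The naive group there has 5 KO, 4 Het and 5 WT libraries, and repopulation has 4 of each. Each condition has its own controls. In naive microglia 724 genes were higher in KO and 664 lower (4.62% and 4.24% of 15664 genes), and at repopulation 1440 and 1198 (9.19% and 7.65%). Of the 317 genes called at depletion, 247 were called in the same direction in naive and 0 in the opposite one, and 269 and 1, Olfm4, at repopulation. For Uqcrfs1 the fold change was -2.06 in naive and -2.31 at repopulation. All 79 ribosomal protein genes were called higher in naive (median 0.89) and 78 at repopulation (median 0.64), and mitochondrial genes gave 8 of 13 in each. In the same fit the amino acid list gave 14 calls in naive and 16 at repopulation among the 21 members tested above. At depletion it gave 9 calls among the 22 members that the fit of 34 libraries kept.

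A test of the difference between effects called few genes. Between depletion and naive the KO effect was higher for 2 genes, Nr4a2 and the zinc finger gene Zfp93 (0.0128% of genes tested), and lower for 1 (0.00638%), with 1339 at an unadjusted p under 0.05. Sparc was that 1, with a difference of -0.54 ± 0.09 (SE, edgeR adjusted p = 0.00723): naive KO libraries held 3864 to 4498 CPM, against 4730 to 5036 CPM for Het and 4431 to 5108 CPM for WT. Its effect also differed from repopulation, by -0.49, where KO held 4578 to 5167 CPM against 5366 to 6264 CPM for Het and 5698 to 6283 CPM in WT. On the same scaling the depletion KO libraries, at 2948 and 2923 CPM, lay below every KO library of the other conditions. Zfp93 was at 39.7 CPM in KO 1 and 1.83 CPM in KO 2, against 0.761 to 3.13 CPM in controls, so its call rests on KO 1. None of the 3 genes was among the 2 called without KO 1, and 2 of the 3 were among the 7 called without KO 2. Sparc was not called without KO 1, without KO 2, in the fit of all 64 libraries or with no filter on low counts, each of which gave 0 lower calls.

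Between depletion and repopulation the KO effect was higher for 12 genes (0.0766%) and lower for 4 (0.0255%), with 1466 at an unadjusted p under 0.05. Of the 7 genes called without KO 1, 4 were among these 16, as were 6 of the 14 called without KO 2. Slamf8, a receptor of the SLAM family on macrophages, was at 31.5 and 33.5 CPM in KO at depletion, 41.0 and 33.9 CPM in Het and 39.9, 37.6, 37.3 and 31.1 CPM in WT, so the groups overlapped. At repopulation it was at 11.4 to 15.4 CPM in KO against 39.5 to 53.1 CPM for Het and 42.9 to 60.2 CPM in WT, with no overlap, and the effects differed by 1.70 ± 0.21 (SE, edgeR adjusted p = 7e-05). Igsf6 (difference 1.12), Cd52 (0.97) and B2m (0.64), the light chain of MHC class I, were also not called at depletion. For Cd52 and B2m both KO libraries lay above all 4 WT libraries at depletion. Olfm4 was higher in KO at depletion, at 12.9 and 17.3 CPM against 4.62 to 8.41 CPM in controls, and lower at repopulation, at 8.21 to 9.81 CPM in KO against 11.6 to 22.2 CPM in controls (difference 2.06). The mitochondrial protein gene Ghitm (-0.57) and the sorbitol dehydrogenase gene Sord (-0.72) were on the other side, with Sparc and the low-count cell cycle factor Foxm1 (-2.77). In the interferon list the fit of 34 libraries called 13 of 23 genes lower in KO at repopulation and 1 of 24 at depletion. Of the 23 genes 0 differed between these conditions by the test of the difference. The interferon-induced genes Oas3 (3.37, edgeR adjusted p = 0.0196) and Iigp1 (2.92, edgeR adjusted p = 0.0206), outside that list, were among the 12 higher ones. Both were low and were named after their values were seen. Oas3 was at 6.09 and 5.21 CPM in KO at depletion, against 0.633 to 2.07 CPM in controls. Iigp1 was at 4.52 and 2.32 CPM in KO there, against 0.696 to 3.14 CPM in controls.

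**Figure D5:**
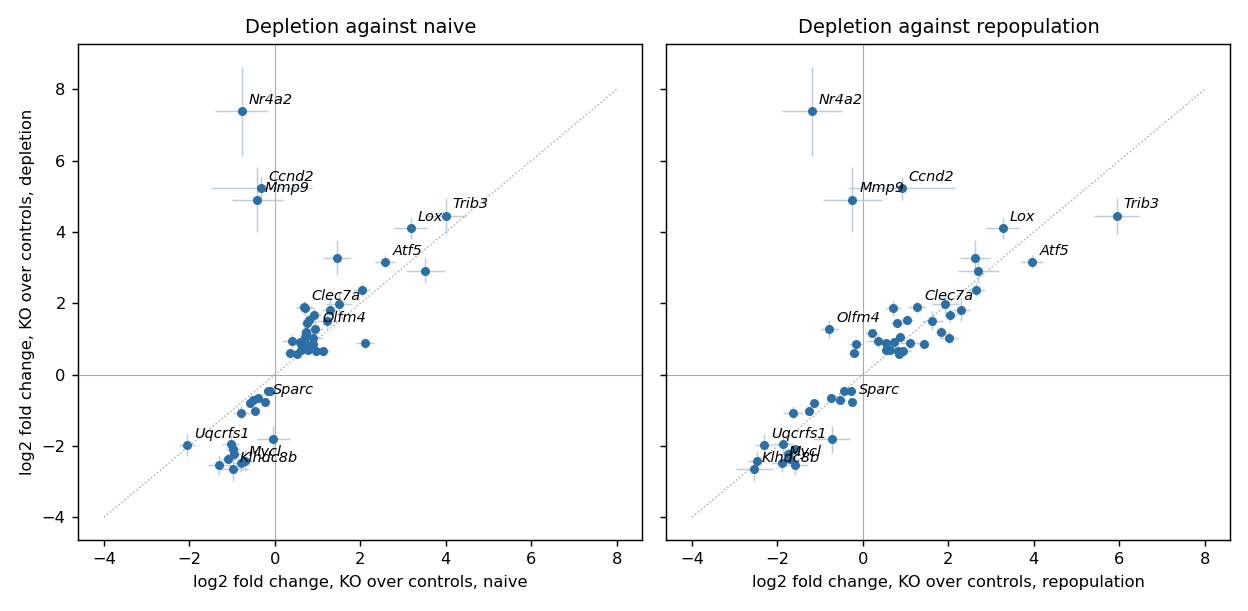
Log2 fold change of KO over controls at depletion (vertical axis) against that in naive and in repopulation libraries (horizontal axes) for the named called genes, with standard errors as bars and a dotted line at equality. Nr4a2, Ccnd2 and Mmp9 lie far above the line in both panels.

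The choice of control was compared at depletion. KO against WT alone gave 222 higher and 100 lower calls (1.59% and 0.717% of genes), and KO against Het alone 83 and 52 (0.595% and 0.373%). Both comparisons share the KO libraries, and Het has 2 libraries against 4 for WT. Het against WT gave 1 call (0.00717%), with 1211 genes at an unadjusted p under 0.05. That gene was Mettl17, which encodes a factor of mitochondrial ribosome assembly, at 54.9 and 72.7 CPM in Het against 7.80, 8.79, 6.72 and 8.90 CPM in WT (2.98 ± 0.22, edgeR adjusted p = 0.00741). KO was at 8.86 and 5.86 CPM, within or below the WT range, so both Het libraries stood apart from the other genotypes. Fitted on the KO and Het libraries alone, there were 0 calls by edgeR, and 1331 genes had p under 0.05 before adjustment.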

How the data were processed

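The deposited table gives raw counts per gene and library, and per the submitters' processing notes the authors used bcl2fastq 2.20, Trim Galore 0.6.7, STAR 2.6.1d and Salmon 1.5.2 with the build GRCm38. Which of these made the counts is not given in the sources used here. Libraries were grouped by title. Genes were filtered with edgeR 4.0.16 (filterByExpr, minimum count 10, minimum total 15), scaled by TMM and tested by the quasi-likelihood test in R 4.3.3 on the 8 depletion libraries, two-sided, as KO against the mean of the Het and WT means, with p-values adjusted by Benjamini-Hochberg across the 13948 genes and called under 0.05. Differences between conditions were tested as interactions on 34 libraries and 15664 genes. Errors are standard errors unless named SD. Precision rests on 2 KO libraries. Positions are from GENCODE on GRCm38.

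The members and the 36 gene lists were chosen with earlier results of these data known, and 2 more lists were added after the calls were seen. Named genes are Uqcrfs1, the 10 called genes with the largest log2 fold change in each direction with mean log2 CPM not under 3 and both KO libraries outside the control range (no Gm-numbered, Rik or clone symbols), in each list the 4 called members of smallest p, or fewer, and up to 5 called genes on each side of an interaction. Where fewer genes met these limits, fewer are named, and a few are not reported here. Other list members are given with their values. The fits were tested on simulated data. Alternatives were DESeq2 1.42.0, its size factors, no low-count filter, other sets of libraries, sex or replicate number as a covariate and each library left out.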

Additional observations from a re-analysis of the deposited data

Results flagged for a closer look

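In 101 measures of the 4 WT libraries, 5 had 1 library far from the other 3, where chance gives about 1 in 20. Ccnd2 was at 9.35 CPM in WT 4, against 4.87 to 5.58 CPM in the other WT libraries, and both are far below the KO values. Klhdc8b was at 27.9 CPM in WT 3 against 14.8 to 16.0 CPM, Tm6sf1 at 108 CPM in WT 4 against 117 to 119 CPM, and Gabbr1 at 26.5 CPM in WT 2 against 55.5 to 61.1 CPM. Endothelial genes summed to 0.100% of counts in WT 4 against 0.0634% to 0.0680%.

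The KO effect differed between conditions by the test of the difference itself for a few genes. Depletion minus naive was 8.16 for Nr4a2 and -0.54 for Sparc on the log2 scale. Depletion minus repopulation was 8.58 for Nr4a2, 2.06 for Olfm4, 1.70 for Slamf8, 1.12 for Igsf6, 0.97 for Cd52 and 0.64 for B2m. It was -0.49 for Sparc, -0.57 for Ghitm and -0.72 for Sord. Nr4a2 was at 89.7 CPM in KO 1 and 1.44 CPM in KO 2.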

How the results depend on the processing

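The count of 317 genes changed in KO was 820 with DESeq2's Wald test (312 shared), 847 in the fit of 34 libraries (296 shared), 51 in the fit of all 64 (46 shared) and 189 without the ribosomal and mitochondrial DNA genes, a setting added after the data were seen. With 1 library left out it was 17 to 265. Over all genes the deviations of same-numbered libraries correlated weakly (-0.108 to 0.206), and whether equal numbers mark shared handling was not tested. Dissociation stress and immediate early genes took more of the counts in replicate 1 than in replicate 2. The shares were 0.705% and 0.374% in KO, 0.558% and 0.432% in Het and 1.02% and 0.645% in WT. Heat shock genes did so in Het and WT but not in KO (0.343% and 0.349%). The replicate block gave 175 calls in KO against controls, 141 for KO against WT, 14 for KO against Het and 0 for Het against WT. The fall in Uqcrfs1 kept its sign in every setting and missed the threshold in the fit of all 64 (-1.96, adjusted p = 0.0954), with the block (-2.04, adjusted p = 0.0569) and without KO 1 or without KO 2, over a leave-one-out range of -2.30 to -1.72. KO against Het gave 278 calls with no filter and 0 on those libraries alone. Genes outside the range numbered 3532 against WT alone and 2459 to 2819 with 1 library left out. The interaction with naive gave 1 call with no filter and, without 1 KO library, 2 to 7, and that with repopulation gave 2 in the fit of all 64 and, without 1 KO library, 7 to 14. The fold change of Igsf6 at depletion, -0.03, turned to 0.085 without Het replicate 1 and to 0.080 without KO replicate 1, over a leave-one-out range of -0.15 to 0.085. Of 51 other called named genes, 6 kept their call under every alternative, 16 under every one that left out no library, and 51 kept their sign. For these 51 genes and Uqcrfs1 both KO libraries lay outside the control range. Leaving out a library could therefore hardly turn their sign, so the kept sign adds little. The causes were not tested. Changes in genes with few counts, and modest changes, are limited by 2 KO libraries.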

Other observations

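These genes were chosen after their values were seen. Gpr137b-ps, a pseudogene on the chromosome of Uqcrfs1, was at 0.0869 and 0 CPM in KO, against 6.70 and 4.62 CPM in Het and 14.5, 9.54, 6.63 and 11.6 CPM in WT (edgeR adjusted p = 0.00338). Of the 507 genes tested on chromosome 13, 13 were called (2.56%), against 2.27% of all genes. Foxm1, a transcription factor of the G2 and M phases, was at 1.30 and 2.69 CPM in KO, against 8.44 and 6.40 CPM in Het and 4.62, 4.93, 7.39 and 10.3 CPM in WT, below every control but not called (edgeR adjusted p = 0.125). The proliferation marker Mki67 was at 2.17 and 2.21 CPM in KO, against 2.87 and 3.78 CPM in Het and 9.64, 7.29, 12.4 and 5.16 CPM in WT (-1.28, edgeR adjusted p = 0.214), while at repopulation it was higher in KO (1.47, edgeR adjusted p = 0.0078). The neutrophil genes S100a8, S100a9 and Ngp were at 0 in KO 1 and at 13.3, 15.7 and 19.3 CPM in KO 2. In controls they were at 0.168 to 1.89, 0 to 1.23 and 0 to 1.72 CPM. None of them was called (edgeR adjusted p = 0.404, 0.293 and 0.355).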
